A study of Canis lupus familiaris with 77 samples.

Results

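The miR-200 and miR-141 family was examined in small RNA sequencing (miR-seq) of 16 tissues of untreated male beagle dogs. Its 5 members, cfa-miR-200a, hsa-miR-200b-3p, cfa-miR-200c, cfa-miR-141 and cfa-miR-429, were chosen by name from the 650 miRNAs with at least 1 read. The choice by name used no values, but earlier results of these data were known. The prefixes name the species of the annotation that gave the row (cfa, dog; hsa, human). All 5 rows were found. They held 615812 of 126561265 miRNA reads, or 0.487%. By the study's methods the tissues came from 5 dogs, 10 months old, that were flushed with phosphate buffered saline before the organs were taken, and no dog received a test compound. There were 5 libraries each of pancreas, duodenum, jejunum, ileum, lung, kidney, testis, thymus, liver, brain, heart, quadriceps skeletal muscle, bone marrow and plasma, 4 of colon and 2 of sciatic nerve. The study describes the nerve RNA both as a pool that was divided again and as partly individual samples, so it is not clear whether the 2 nerve libraries are separate animals. The labels carry no dog number. The p-values below therefore treat all libraries as independent and measure only the spread between these libraries.

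These miRNAs are markers of epithelial cells. They bind the messengers of ZEB1 and ZEB2, repressors of E-cadherin, and are known for holding cells in the epithelial state, while ZEB proteins in turn repress the genes of the family. The family comes from a pair of gene clusters, one with miR-200b, miR-200a and miR-429 and one with miR-200c and miR-141. By the seed of their 3p arms, the bases that choose the targets, miR-200b, miR-200c and miR-429 form one group and miR-200a and miR-141 another. In the RefSeq gene table of a different dog assembly, UU_Cfam_GSD_1.0, MIR200B, MIR200A and MIR429 lay next to each other within the span of TTLL10, and MIR200C lay next to MIR141, beside PHB2. A hairpin gives 2 arms, 5p and 3p. The row cfa-miR-200a holds the 5p arm, since it was merged with the human and rat miR-200a-5p rows, and the 3p arm stood in the row hsa-miR-200a-3p. The member row of miR-200a therefore does not carry the seed of the family. As a member, miR-200a below means this 5p row. The other 4 members are 3p arms. The 3p arm of miR-200a and the 5p arms of miR-200b, miR-200c and miR-141 were followed as opposite arms.

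Library depth ran from 157871 to 7896424 miRNA reads with a median of 1364823. A count of 0 allowed up to 3 reads, which was 0.380 to 19.0 RPM (reads scaled to 1000000 miRNA reads in the library), depending on depth. The bone marrow libraries, with 162310 to 239023 reads, were among the shallowest. The study reports low RNA integrity for plasma, bone marrow and some kidney samples, with a lower share of mapped reads in bone marrow. For thymus it reports the most variable share of mapped reads. Bone marrow RNA was also extracted by another method than that of the solid tissues. The part of these differences in the results was not tested. Marker lists matched the tissue labels at the level of the tissue median: the striated muscle, neural, hepatocyte, acinar and germ cell lists were highest in heart, brain, liver, pancreas and testis, and the blood cell list in plasma. In 5 libraries a list stood apart from the rest of its tissue. These were testis 2 and 3, low in germ cell miRNAs, skeletal muscle 4, low in muscle miRNAs, duodenum 4, low in epithelial miRNAs, and brain 2, high in miRNAs of the epithelial list. They were chosen on the lists and not on the family's own values, and results that rest on them are given with and without them. For duodenum 4 and brain 2 the choice was not independent of the family, since other epithelial miRNAs moved with it.

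In the organs rich in epithelium the family was abundant. In most tissues grouped here as without epithelium it was near the limit of detection. A read was found in 76 of 76 libraries for miR-141, in 71 for both miR-200b and miR-200c, in 64 for miR-429 and in 54 for miR-200a. The 5 levels were summed in each library. The summed family level had a median of 22499 RPM in pancreas, 7922 in jejunum, 5901 in colon, 5187 in ileum, 4219 in lung and 3475 in duodenum. Testis (1342 RPM) and kidney (1045 RPM) were intermediate. Skeletal muscle was lowest at 22.2 RPM. In bulk tissue a lower level can mean fewer epithelial cells or less of the miRNA in each, and these cannot be told apart here.

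**Figure D1:**
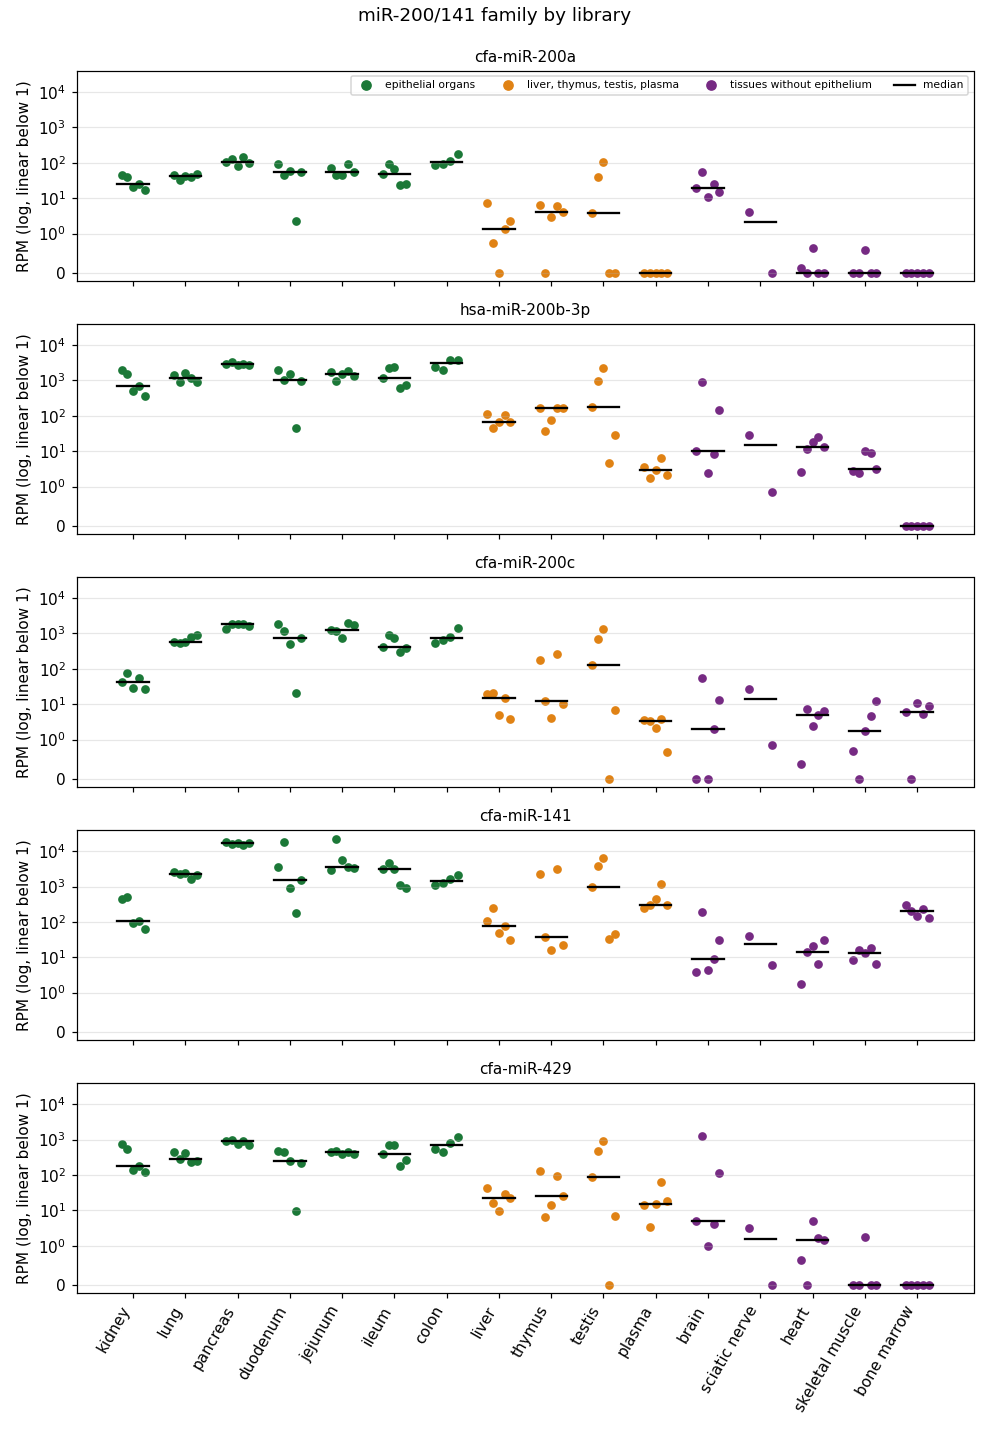
Level of each member (RPM, a linear scale up to 1 and a logarithmic scale above it) in every library of the 16 tissues, with 1 panel for each member and a black line at the tissue median. Green marks organs rich in epithelium, orange liver, thymus, testis and plasma, and purple tissues grouped as without epithelium. Pancreas reached 15356 to 18258 RPM of miR-141, while bone marrow held 0 reads of miR-200a, miR-200b and miR-429.

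Among the members, miR-141 was the most abundant in most epithelial tissues. Its pancreas libraries held 18258, 16222, 16612, 15356 and 17342 RPM. These 5 values lay close together and above all but 2 of the other 71 libraries. Those 2 were duodenum 2 (18021 RPM) and jejunum 2 (21926 RPM). The other 17 intestinal libraries ranged from 173 to 5608 RPM with a median of 2170. Lung miR-141 was tightly grouped, at 2573, 2262, 2392, 1616 and 2096 RPM. The kidney libraries held only 445, 497, 90.2, 104 and 60.9 RPM. By median, kidney ranked below testis, plasma and bone marrow for this miRNA, although its libraries overlapped with each of these and its mean (239 RPM) was above that of bone marrow (202 RPM). By tissue median the order of miR-141 was pancreas (16612 RPM), jejunum (3530), ileum (3149), lung (2262), duodenum (1490), colon (1419), testis (950), plasma (303), bone marrow (201), kidney (104), liver (78.8), thymus (38.0), sciatic nerve (23.6), heart (14.3), skeletal muscle (12.9) and brain (8.81).

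For miR-200b the highest libraries were in colon, with 2441, 1966, 3783 and 3890 RPM, and in pancreas, with 2924, 3427, 2780, 2883 and 2688 RPM. The 2 tissues overlapped. Kidney held 2018, 1562, 511, 679 and 363 RPM, within the range of the intestine. In order of medians, miR-200b ran from colon (3112 RPM) and pancreas (2883) through jejunum (1532), ileum (1187), lung (1147), duodenum (1019) and kidney (679) to testis (173), thymus (163) and liver (68.3). Below these came sciatic nerve (14.8 RPM), heart (12.9), brain (10.2), skeletal muscle (3.17), plasma (2.88) and bone marrow (0).

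From the same gene cluster and seed group, miR-429 was mostly lower than miR-200b but followed the same tissues. Pancreas held 905, 984, 768, 919 and 706 RPM, colon 541, 441, 822 and 1150 RPM. Colon 5 exceeded every pancreas library and colon 3 lay among them. By median, pancreas (905 RPM), colon (682), jejunum (450), ileum (378), lung (276), duodenum (241), kidney (181), testis (86.7), thymus (25.6), liver (22.4), plasma (15.1), brain (5.09), sciatic nerve (1.54) and heart (1.43) were followed by bone marrow and skeletal muscle at 0.

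With miR-200c, the partner of miR-141, pancreas held 1317, 1859, 1834, 1885 and 1665 RPM and jejunum 1286, 1168, 760, 2019 and 1731 RPM. These tissues overlapped. In kidney the values were 43.1, 77.9, 29.2, 55.9 and 26.8 RPM, all below every lung library (550 to 932 RPM). The order of medians was pancreas (1834 RPM), jejunum (1286), duodenum (756), colon (724), lung (560), ileum (425), testis (128), kidney (43.1), liver (14.7), sciatic nerve (13.8), thymus (12.7), bone marrow (6.16), heart (4.89), plasma (3.40), brain (2.03) and skeletal muscle (1.76).

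The 5p arm of miR-200a was the scarcest member. It reached 84.4, 94.4, 111 and 182 RPM in colon and 102, 131, 81.2, 143 and 97.8 RPM in pancreas. Both tissues overlapped. Its medians fell from colon (103 RPM) and pancreas (102) through jejunum (54.6), duodenum (53.6), ileum (48.2), lung (43.7), kidney (25.6) and brain (19.1) to thymus (3.94), testis (3.77), sciatic nerve (2.06) and liver (1.34). The medians of heart, bone marrow, plasma and skeletal muscle were 0.

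Most neighbours in these 5 orders were not told apart by the test. Of 75 neighbouring pairs of tissues, 14 passed edgeR's quasi-likelihood test at an adjusted p under 0.05, where 37.1% of all miRNAs tested on the same pairs passed. The libraries of 5 of the 75 pairs did not overlap, against 27.7% for all miRNAs tested on the same pairs. The pairs were neighbours in each member's own order of medians, which favours small differences for that member. The shares over all miRNAs were not sorted in this way, so a lower share for the members carries no conclusion. The 14 pairs were 4 for miR-200a, 3 each for miR-200b and miR-141 and 2 each for miR-200c and miR-429. None of them lay within pancreas, lung and the 4 stretches of intestine. For miR-200c, testis was above kidney and thymus above bone marrow. For miR-141, plasma was above bone marrow and thymus above sciatic nerve, and thymus was also above liver in the fit although its median was lower. In miR-429, testis was above thymus and brain above sciatic nerve. The pairs for miR-200b were testis above thymus, brain above skeletal muscle and, against the order of medians, brain above heart. For miR-200a they were kidney above brain, testis above sciatic nerve, liver above heart and, again against the medians, testis above thymus. Several of these pairs involve testis, thymus or brain, whose libraries differed widely among themselves.

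The first comparison set 7 organs against 5 tissues. The 7, grouped as rich in epithelium, were kidney, lung, pancreas, duodenum, jejunum, ileum and colon (34 libraries). The 5, grouped as without it, were brain, sciatic nerve, heart, skeletal muscle and bone marrow (22 libraries). Both names are labels given by organ, and whether these samples, brain included, were free of epithelial cells was not tested. All 5 members were higher in the epithelial organs, where 26.9% of the 480 miRNAs tested were called higher and 14.4% lower. For miR-141 the epithelial libraries ranged from 60.9 to 21926 RPM with a median of 2327, and the others from 1.77 to 308 RPM with a median of 17.3. The 2 sets overlapped through kidney and duodenum 4 at the low end and brain and bone marrow at the high end. Its log2 fold change was 6.72 (SE 0.77, adjusted p = 2.32e-11, edgeR quasi-likelihood test). The mean of the tissue means was 5093 RPM against 60.1 RPM, an 84.8-fold difference.

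For the remaining members at least 1 tissue without epithelium had no library with more than 3 reads, so the means are compared in place of a fitted fold change. The median of miR-200b was 1547 RPM (44.3 to 3890) against 5.65 RPM (0 to 901). Its mean of tissue means was 35.2-fold higher, at 1749 against 49.7 RPM (adjusted p = 7.00e-14). The median of miR-200c was 765 RPM (20.2 to 2019) against 4.72 RPM (0 to 54.1), and its mean was 103-fold higher (871 against 8.43 RPM, adjusted p = 5.96e-13). Ranges overlapped in each case.

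In miR-200a the median was 51.1 RPM (2.33 to 182) against 0 RPM (0 to 55.3), with 66.2 against 5.49 RPM as the means, a 12.04-fold difference (adjusted p = 1.95e-15). In miR-429 it was 446 RPM (9.33 to 1150) against 0.317 RPM (0 to 1278), and the means of 488 and 56.8 RPM differed 8.59-fold (adjusted p = 2.84e-12). The highest value of miR-429 in all 76 libraries was thus in a brain library. Without the 5 libraries that stood apart, the miR-429 means were 498 and 6.99 RPM, a 71.3-fold difference, and the miR-200b means 1787 and 15.1 RPM, a 118-fold difference. All 5 calls held without those libraries and without bone marrow. Every epithelial library exceeded every library of the tissues without epithelium for 0 of the 650 miRNAs (0%), the members included.

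The scaling of libraries matters for the counts over all miRNAs. The scaling factors of the trimmed mean of M-values (TMM) ran from 0.344 to 2.69. With them 129 miRNAs were higher and 69 lower, and the median log2 fold change of all miRNAs tested was -0.01. With DESeq2's size factors the split was 94 to 116 and the median -0.33, and with library size alone 93 to 108 and -0.31. The 5 members were called higher under each.

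Other epithelial miRNAs moved with the family. Of the 18 rows of an epithelial list (miR-192, miR-194, miR-215, miR-203, miR-205, miR-375, miR-182, miR-183, miR-96 and miR-31), 13 could be tested, 11 were higher and 0 lower, with a median log2 fold change of 4.30. Examples were miR-192 (5.46, SE 0.38), an intestinal and hepatic miRNA, and miR-375 (5.40, SE 0.53), an endocrine one. Of 9 rows of a connective tissue and smooth muscle list 6 were higher and 0 lower, among them miR-143 (1.73, SE 0.25). Of 13 striated muscle rows 10 were tested, and 7 of these were lower, for example miR-133a (-3.09, SE 0.32). Of 4 neural rows 2 were lower, such as miR-9 (-1.83, SE 0.22). In the blood cell list 3 of 9 rows were higher and 2 lower. Of 5 acinar rows 1 was higher, of 2 hepatocyte rows 1 was lower, and of 5 germ cell rows 0 passed. The connective tissue list thus moved in the same direction as the family, and its part in the family's difference was not tested.

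**Figure D2:**
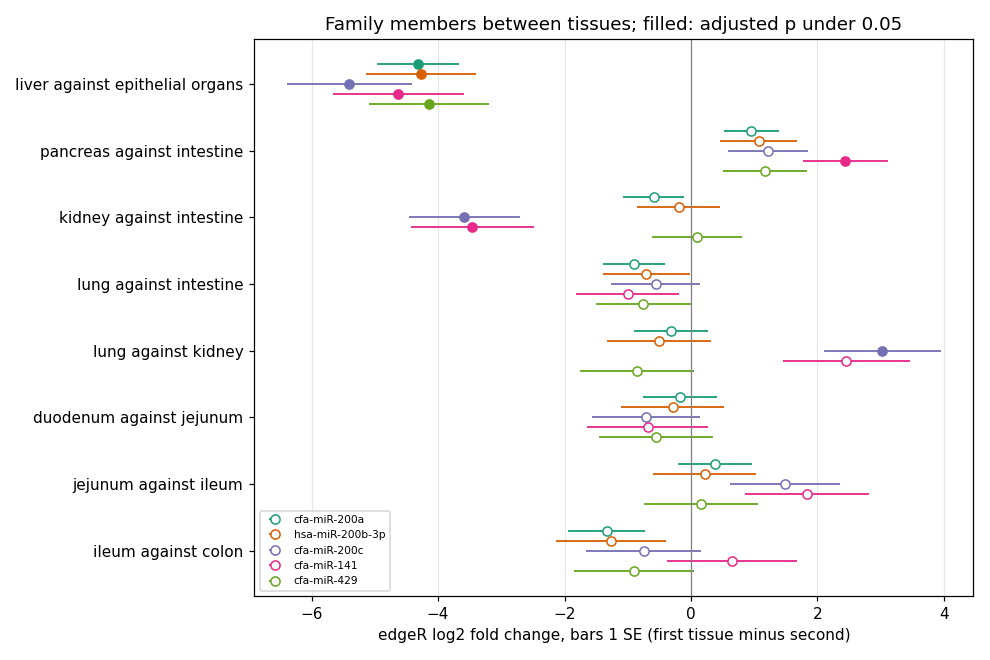
Log2 fold change of each member in 8 comparisons (points, edgeR; bars, ±1 SE), with filled points where the adjusted p was under 0.05. All 5 members were lower in liver than in the epithelial organs, while kidney against intestine separated miR-200c and miR-141 (-3.59 and -3.46) from miR-200a, miR-200b and miR-429 (-0.59 to 0.09).

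Hepatocytes are epithelial cells by origin, yet liver held little of the family. The miR-200b values of liver were 116, 45.9, 68.3, 104 and 68.0 RPM. For miR-141 they were 104, 253, 47.2, 78.8 and 30.1 RPM. Liver was within the range of single kidney or duodenum libraries for miR-141, and below all pancreas, lung, jejunum, ileum and colon libraries for both. All 5 members were lower in liver than in the mean of the 7 epithelial organs, where 16.9% of the miRNAs tested were lower. The median log2 fold change of the members was -4.32, against -0.20 over all miRNAs tested. It was -5.40 (SE 0.99, adjusted p = 7.96e-06) for miR-200c and -4.63 (SE 1.04, adjusted p = 2.11e-04) for miR-141. For miR-200a, miR-200b and miR-429 it was -4.32, -4.27 and -4.15, with adjusted p from 2.13e-07 to 2.92e-04 (edgeR). The epithelial list summed to 173554 to 235786 RPM in liver and 152887 to 202955 RPM in pancreas. In liver 91.9 to 94.1% of this sum was miR-192, a known liver miRNA, and 5 to 9 of the 18 rows had 0 reads. Without miR-192 the list summed to 13535 to 15587 RPM in liver and 120996 to 175870 RPM in pancreas.

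Within the epithelial organs, pancreas and intestine were compared. By the fit, miR-141 was higher in pancreas by 2.44 on the log2 scale (SE 0.67, adjusted p = 0.00194, edgeR), and its means were 16758 RPM ± 1103 (SD, n = 5) in pancreas and 4116 RPM as the mean of the 4 intestinal tissue means. This was 1 of 5 members, where 17.7% of all miRNAs tested were higher. The other 4 had log2 fold changes from 0.96 to 1.21 with adjusted p from 0.0723 to 0.166, and the 95% intervals, such as -0.03 to 2.45 for miR-200c, do not show that the tissues were alike. Without the 5 libraries that stood apart, of which duodenum 4 is intestinal, all 4 passed (adjusted p from 9.39e-04 to 0.0325).

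Opposite arms of the hairpins were compared in the same way. The 3p arm of miR-200a held 2200, 2767, 2000, 2864 and 1877 RPM in pancreas, and no library of any other tissue exceeded 1371 RPM. It was higher in pancreas than in intestine by 2.25 on the log2 scale (SE 0.58, adjusted p = 9.66e-04), while its 5p arm was not called in edgeR (0.96, SE 0.43, adjusted p = 0.0723) but was in DESeq2 (adjusted p = 0.0246) and, in edgeR, without the libraries that stood apart (9.39e-04). The difference between the arms was not tested. The 5p arm of miR-141 held 279, 244, 228, 255 and 238 RPM in pancreas, all above the highest other library (190 RPM). Its log2 fold change was 1.57 (SE 0.54, adjusted p = 0.0153). For the 5p arm of miR-200b it was 1.13 (SE 0.46, adjusted p = 0.0412) and for that of miR-200c -0.05 (SE 0.72).

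Tissue enrichment (TE) was computed with the thresholds of the study on the 76 libraries used here: a mean RPM more than 5-fold above the mean of all other samples and an adjusted p under 0.05 in a rank-sum test, for which the exact form was used. Of the 80 combinations of member and tissue, 2 met it, where 3.62% of all combinations of miRNA and tissue did. Both were in pancreas, where 27 of 650 miRNAs (4.15%) were TE. No filter on level was applied, and the study lists fewer enriched miRNAs in pancreas, so these calls are not the study's own. In miR-141 the fold was 10.4 (adjusted p = 2.43e-04) and in miR-200c 5.07 (adjusted p = 3.59e-04, exact rank-sum test). The call of miR-200c lies just above the threshold and was lost in 30 of the 76 computations that left out 1 library, with folds down to 4.94. The folds of miR-200b in pancreas (4.25) and colon (4.20) and of miR-200a in colon (4.18) and pancreas (4.05) lie below it. Among the opposite arms, miR-200a-3p (8.54-fold) and miR-141-5p (7.58-fold) were TE in pancreas and miR-200c-5p (8.0-fold, at a mean of 7.22 RPM) in jejunum, where 1.23% of miRNAs were TE.

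Kidney separated the 2 gene clusters. Against the intestine, miR-200c was lower in kidney by 3.59 on the log2 scale (log2 fold change -3.59, SE 0.88, adjusted p = 5.86e-04) and miR-141 had a log2 fold change of -3.46 (SE 0.97, adjusted p = 0.00259, edgeR), as 2 of 5 members where 19.2% of all miRNAs tested were lower. The members of the other cluster did not pass: the log2 fold change was -0.59 (SE 0.48) for miR-200a, -0.20 (SE 0.66) for miR-200b and 0.09 (SE 0.71) for miR-429. The 95% interval of miR-429, -1.29 to 1.48, leaves room for a difference of more than 2-fold. Kidney miR-429 held 736, 554, 136, 181 and 122 RPM. Kidney 1 and 2 were the highest of the 5 for every member other than miR-200c, for which they were kidney 2 and 4.

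The separation was tested within libraries, where scaling has no part. The summed reads of miR-200b, miR-200a and miR-429 were divided by those of miR-200c and miR-141. In the 5 kidney libraries this ratio was 3.75 to 5.73 with a median of 5.58, although the levels themselves differed between those libraries. In duodenum it was 0.0784 to 1.25, in jejunum 0.0644 to 0.534, in ileum 0.452 to 0.816 and in colon 1.32 to 1.97. No kidney library overlapped an intestinal one. The mean log2 ratio was 2.38 in kidney and -0.89 in intestine, a difference of 3.27 (two-sided exact permutation test, p = 2.35e-05, the smallest that 42504 regroupings of 5 and 19 libraries can give; adjusted over 9 comparisons, p = 2.12e-04). The permutation tests treat the intestinal libraries as interchangeable, although for this ratio all colon libraries lay above those of the other stretches. The mean log2 ratio of lung was -0.89, a difference from intestine of 0.003 (exact permutation p = 0.996). In pancreas it was -2.25, a difference of -1.35 (exact permutation p = 0.0356, adjusted p = 0.107).

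**Figure D3:**
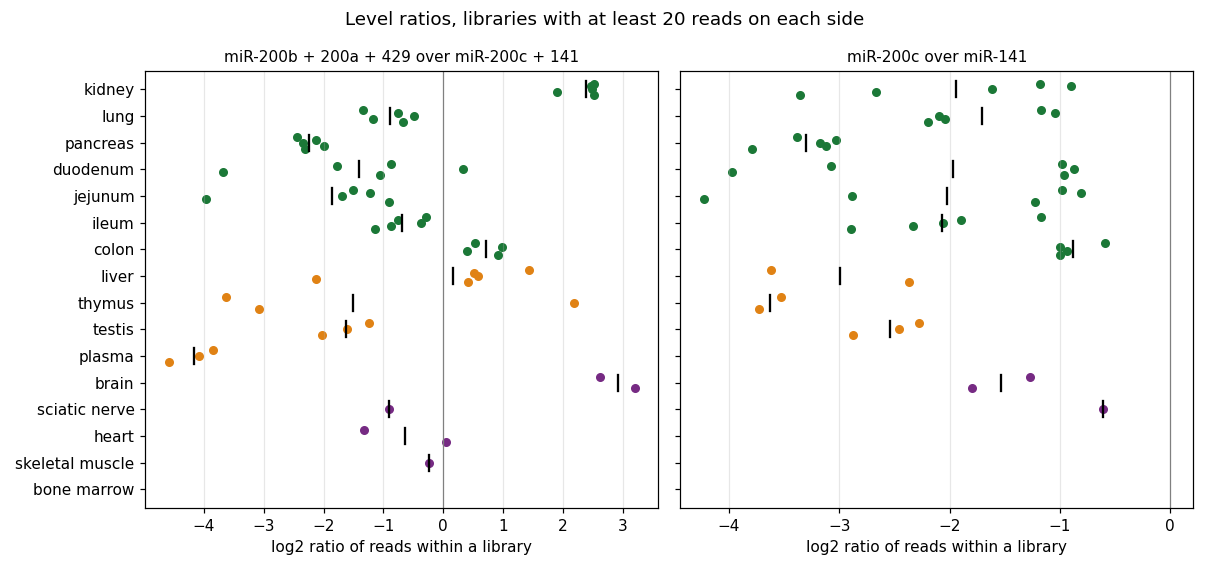
Log2 ratios of reads within single libraries by tissue, for the 2 gene clusters (summed miR-200b, miR-200a and miR-429 over summed miR-200c and miR-141) and for miR-200c over miR-141; points are libraries with at least 20 reads on each side and black lines the means. The 5 kidney libraries lie between 3.75-fold and 5.73-fold on the cluster ratio and the intestinal libraries all below 2-fold.

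The share of each member in the family gave the same picture in other terms. In kidney, miR-200b made up a median of 61.6% of the family and miR-141 11.5%. In pancreas miR-141 was 75.3% and in colon 23.9%, where miR-200b was 48.3%. Lung, ileum and jejunum were close to each other in miR-141, at 49.7%, 49.4% and 49.1%. In plasma (94.1%) and bone marrow (97.7%) nearly the whole sum of the 5 rows was miR-141. These shares leave out the 3p arm of miR-200a, with medians of 2200 RPM in pancreas, 316 RPM in kidney and 41.5 RPM in plasma. Counting it would lower the shares in those tissues.

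The ratio of miR-200c to miR-141, which lie side by side in the gene table, was also uneven. It had a median of 0.110 in pancreas (0.0722 to 0.123), 0.512 in colon (0.499 to 0.665), 0.243 in lung and 0.326 in kidney (0.0978 to 0.538). Pancreas differed from the intestine by -1.52 in mean log2 ratio (exact permutation p = 0.00687, adjusted p = 0.0309). With medians in place of means this call was lost (exact permutation test, adjusted p = 0.0880). Pancreas and intestine overlapped, since duodenum 2 (0.0638) and jejunum 2 (0.0533) lay below every pancreas library. Kidney and lung did not pass (differences of -0.16 and 0.07). The ratio of miR-200b to the 5p arm of miR-200a was even, with medians from 21.96 to 28.5 in every tissue other than brain that had a library with 20 reads of each. Of it no comparison passed (adjusted p from 0.227 to 0.601). Taken with the 3p arm of miR-200a instead, the ratio differed between pancreas and intestine by -1.17 (exact permutation test, adjusted p = 1.06e-04).

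**Figure D4:**
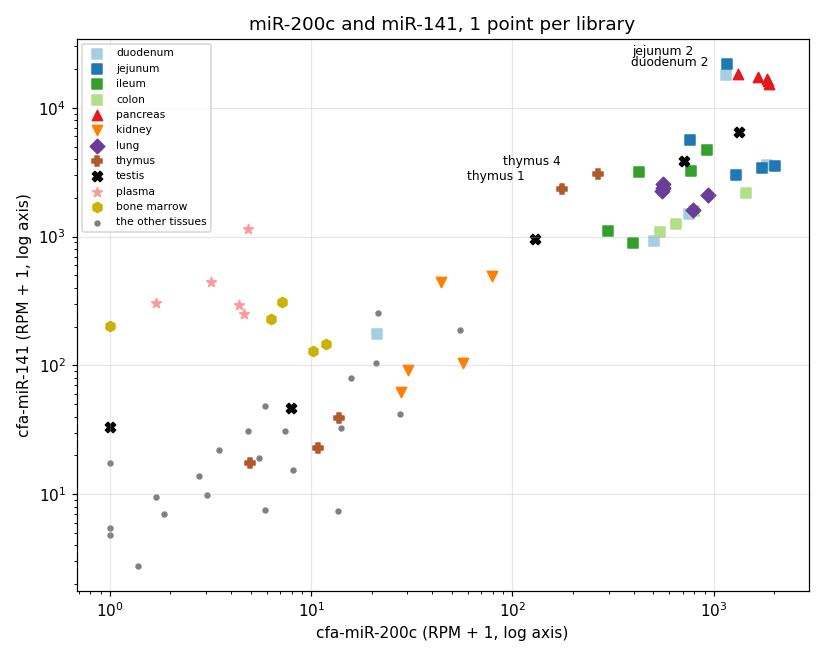
Level of miR-141 (vertical axis) against miR-200c (horizontal axis) in each library (RPM + 1, both axes logarithmic), with a marker for each of the tissues named in the key and grey for the others. Duodenum 2 and jejunum 2 sit at 1150 and 1168 RPM of miR-200c but 18021 and 21926 RPM of miR-141, beside the pancreas libraries, and plasma and bone marrow hold miR-141 with almost no miR-200c.

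Among the members, duodenum 2 and jejunum 2 stood out for miR-141 alone. Their miR-200c (1150 and 1168 RPM) lay within the 20.2 to 2019 RPM of the other 17 intestinal libraries. So did their miR-200b (1019 and 978 RPM), miR-429 (440 and 462 RPM) and miR-141-5p (136 and 122 RPM), the opposite arm of the same hairpin. The miR-141 of both rests on 58021 and 44210 reads. The list of acinar miRNAs, made by the enzyme-secreting cells of the pancreas, summed to 9.94 RPM in duodenum 2 and 9.42 RPM in jejunum 2, against at least 12636 RPM in each pancreas library. The epithelial list was higher in these 2 libraries (526932 and 532241 RPM) than in any other of the 76, but miR-192 made up 73.1% and 74.9% of these sums. Without miR-192 the sums were 141685 and 133524 RPM, within the range of pancreas (120996 to 175870 RPM). They were still above those of the other duodenum (1267 to 70440 RPM) and other jejunum libraries (75816 to 117622 RPM). Their connective tissue list was the lowest of its tissue, at 89660 RPM (143621 to 618098 in other duodenum libraries) and 95688 RPM (111300 to 174804 in other jejunum libraries). The part of either list in the miR-141 level was not tested.

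Between lung and intestine 0 of the 5 members passed the test (edgeR, where 39.6% of all miRNAs tested passed in either direction and 222 of 480 had an unadjusted p under 0.05). The log2 fold changes ran from -1.0 (SE 0.81, miR-141) to -0.56 (SE 0.71, miR-200c). The miR-200a value (-0.91, SE 0.49, adjusted p = 0.141) passed in DESeq2 (adjusted p = 0.0358) and without the 5 libraries that stood apart (0.0128). Of the opposite arms, miR-141-5p was lower in lung by 2.31 on the log2 scale (log2 fold change -2.31, SE 0.71, adjusted p = 0.00687), at 18.6, 27.5, 27.8, 19.3 and 23.8 RPM. Lung against kidney called miR-200c (3.02, SE 0.93, adjusted p = 0.00866), where 9.58% of miRNAs tested were higher. For miR-141 the difference was 2.46 (SE 1.01, adjusted p = 0.0608), although each lung library exceeded each kidney library. It passed in DESeq2 (adjusted p = 0.0436) and with library size alone (0.0123).

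Along the intestine no member passed the test between neighbours. Duodenum against jejunum, jejunum against ileum and ileum against colon each called 0 of 5 in edgeR, where 9.38%, 3.75% and 0.208% of all miRNAs tested passed and 91, 83 and 36 of the 480 had an unadjusted p under 0.05. DESeq2 also called 0 of 5 in each. In a fit of the 2 tissues alone, miR-200c was higher in jejunum than in ileum (log2 fold change 1.48, adjusted p = 0.0121). By adjusted p, the nearest to a difference were miR-141 (1.84, SE 0.98, adjusted p = 0.325) and miR-200c (1.49, SE 0.87, adjusted p = 0.386) in jejunum against ileum. Duodenum itself was uneven. Its miR-200b was 2025, 1019, 1479, 44.3 and 952 RPM, and the low library, duodenum 4, was also low for the 4 other members and for the epithelial list (6455 RPM, against 36375 to 526932 RPM in the other 4).

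Plasma and bone marrow were the tissues in which miR-141 stood nearly alone among the 5 members. Plasma held 251, 293, 440, 1143 and 303 RPM of miR-141 and bone marrow 308, 201, 146, 227 and 129 RPM, which were 27 to 50 reads. The values overlapped. Plasma miR-429 was 14.6, 3.40, 15.1, 61.3 and 18.7 RPM, while bone marrow had 0 reads in all 5 libraries. Plasma held 0 reads of miR-200a and at most 6.39 RPM of miR-200b and 3.83 RPM of miR-200c.

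In the comparison, miR-141 (log2 fold change 2.42, SE 1.02, adjusted p = 0.0484) and miR-429 (adjusted p = 0.00318) were higher in plasma, 2 of 5 members where 26.5% of all miRNAs tested were higher. The miR-141 call was at the threshold and was lost with DESeq2's size factors (adjusted p = 0.0774), with library size alone (0.367) and with no filter on low counts (0.150). For miR-429 the mean in plasma was 22.6 RPM, 1.47-fold above the mean limit of 3 reads in bone marrow (15.4 RPM), so it was at least 1.47-fold higher. This bound rests on plasma 4, without which the mean was 12.9 RPM, below that limit. The 3p arm of miR-200a was also called (25.5, 23.8, 57.6, 168 and 41.5 RPM in plasma, adjusted p = 2.02e-04). Plasma 4 was the highest for miR-141, miR-429 and miR-200a-3p. The epithelial list summed to 9877 to 32676 RPM in plasma and 1711 to 3048 RPM in bone marrow, and its part in the result was not tested. No read of miR-141-5p was found in plasma beside 3424 reads of miR-141, or in bone marrow beside 196.

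Thymus and testis hold epithelial cells among others, and their libraries differed strongly from one another. Thymus miR-141 was 2321, 38.0, 16.5, 3055 and 21.7 RPM. Thymus 1 and 4 were high and the other 3 low. Thymus miR-200c had the same order, at 175, 12.7, 3.99, 265 and 9.86 RPM, but miR-200b did not, at 163, 38.0, 77.6, 169 and 166 RPM. High in the same libraries was miR-205, a miRNA of stratified and thymic epithelium, at 2064, 0, 3.99, 2049 and 57.2 RPM. Another row of the epithelial list, miR-375, did not have this order, at 143, 291, 165, 277 and 201 RPM. The connective tissue list was lower in thymus 1 and 4 (35472 and 16878 RPM) than in thymus 2, 3 and 5 (136250, 95019 and 98941 RPM). The part of either in the result was not tested. By the fit, which compares tissues on the log scale, all 5 members were higher in thymus than in the tissues without epithelium, where 21.7% of the miRNAs tested were higher. The means of tissue means ran the other way for miR-200a (3.84 against 5.49 RPM) and miR-429 (52.9 against 56.8 RPM). For miR-141 the log2 fold change was 5.05 (SE 0.76, adjusted p = 1.78e-07, edgeR). The miR-200a call (adjusted p = 0.00964) rested on 0 to 21 reads in a thymus library and was lost in DESeq2 (adjusted p = 0.0857) and without thymus 4 (0.0643). Each brain library held more miR-200a than any thymus library.

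Testis miR-141 was 950, 3895, 6493, 31.9 and 45.3 RPM. Testis miR-200b was 173, 988, 2270, 4.55 and 27.9 RPM. In both, testis 3 was the highest and testis 4 the lowest. The germ cell list ran the other way, at 56098, 5269, 673, 104620 and 90968 RPM, and miR-205 in step, at 415, 2028, 4495, 0 and 3.48 RPM. Also of the epithelial list, miR-375 was lowest in testis 3, at 102, 157, 18.7, 328 and 414 RPM. The connective tissue list was 99262, 295094, 243624, 80648 and 90216 RPM, and the part of these lists was not tested. Against the tissues without epithelium all 5 members were higher, where 31% of the miRNAs tested were higher, and miR-141 had a log2 fold change of 6.33 (SE 0.81, adjusted p = 5.57e-10, edgeR). Without testis 2 and 3 and the other libraries that stood apart, the call of miR-200a was lost (adjusted p = 0.764) and the log2 fold change of miR-141 was 3.30 (adjusted p = 1.64e-04).

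Brain varied as well, in both clusters. Brain miR-429 was 5.09, 1278, 0.982, 4.07 and 115 RPM. Brain miR-200b was 10.2, 901, 2.46, 8.13 and 147 RPM. Brain 2 and, to a lesser extent, brain 5 were high, and miR-200c (54.1 and 13.03 RPM) and miR-141 (188 and 31.7 RPM) were also highest there. The cluster ratio in these 2 libraries was 9.22 and 6.16, above the whole kidney range. Their miR-182 was 82068 and 13005 RPM, against 249 to 307 RPM in brain 1, 3 and 4, and their miR-183 was 9871 and 2107 RPM, against 16.7 to 29.3 RPM. These are miRNAs of sensory and pineal cells. Among other rows of the epithelial list, miR-375 (127 and 84.3 RPM, against 30.5 to 71.3 RPM), miR-215 (32.0 and 24.8 RPM, against 0 to 20.1 RPM) and miR-96 (41.3 and 10.4 RPM, against 0 RPM) were also highest in brain 2 and 5, at far lower levels. The list did not move as a whole, since miR-205 was 7.77 RPM in brain 2 and 0 in brain 5, and miR-192 was highest in brain 3 at 23546 RPM. The neural list summed to 41074 RPM in brain 2 and 24141 RPM in brain 5, against 40782 to 45339 RPM in the others. The source of the signal was not tested.

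**Figure D5:**
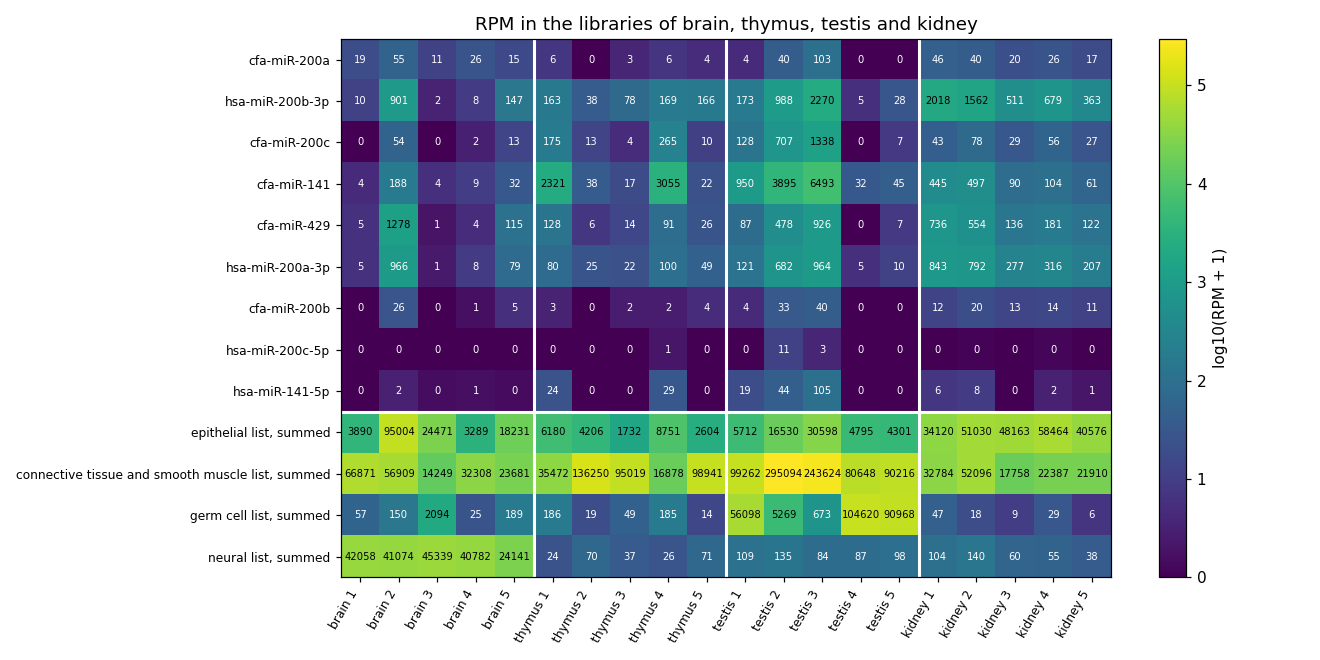
Level (log10 of RPM + 1, colour) of the members, their opposite arms and 4 summed marker lists in each library of brain, thymus, testis and kidney. Brain 2 and 5, thymus 1 and 4, testis 1 to 3 and kidney 1 and 2 have the highest miR-141 of their tissue, with brain 2 at 1278 RPM of miR-429.

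For miR-200a, brain 1, 3 and 4 had more reads of the 5p arm than of the 3p arm, on few reads. The 5p arm was present in all 5 brain libraries, at 19.1, 55.3, 10.8, 25.8 and 14.8 RPM, and varied far less than miR-200b and miR-429. Beside 22 reads of the 5p arm there were 3 of the 3p arm in brain 3 (88% 5p), 38 beside 12 in brain 4 (76%), and 15 beside 4 in brain 1. In brain 2 the 5p arm was 5.42% and in brain 5 15.7%. Over the 50 libraries of other tissues with at least 20 reads of both arms together, the 5p share was 0 to 13.7%. Brain 2, with the most reads of these arms in brain, lay within this range. Sciatic nerve, with 4 reads of the 5p arm and 1 of the 3p arm in all, fell below the 20 reads. Whether reads of another locus entered the 5p row in brain was not tested.

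The 3p arm dominated in the other hairpins. Over libraries with at least 20 reads of the hairpin, the median 5p share was 1.203% for miR-141, 1.38% for miR-200b and 0.190% for miR-200c, and 7.53% for miR-200a. The share for miR-141 was 6.86% in colon (5.75 to 7.55%), 1.48% in pancreas (1.36 to 1.64%) and 1.15% in lung (0.718 to 1.203%), and these 3 ranges did not overlap. Those of duodenum (0 to 5.04%), jejunum (0.551 to 5.08%), kidney (0 to 2.11%) and testis (1.11 to 1.95%) overlapped both pancreas and lung. That of ileum (2.62 to 5.43%) overlapped none of the 3. For miR-200a it was 12.1% in colon and 4.52% in pancreas (3.90 to 4.95%).

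Across the 16 tissue means of log2(RPM + 1), the members followed each other closely. Pearson's r was 0.96 between miR-200b and miR-429, 0.93 between miR-200a and miR-200b and 0.90 between miR-200c and miR-141. It was lower for miR-141 with miR-200a (0.73) and miR-200b (0.74), and was 0.92 between miR-200b and miR-200c. The 3p arm of miR-200a had an r of 0.99 with miR-429 and 0.88 with its own 5p arm. These values describe 16 tissues that share libraries and depth, and carry no p.

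Outside the family, 259 miRNAs had a tissue median above 100 RPM and were ranked by the same measure. Nearest to miR-200a, miR-200b and miR-200c was miR-31 (r = 0.81, 0.80 and 0.78), which was highest in pancreas with a median of 1337 RPM. The nearest to miR-141 and miR-429 was miR-203 (0.76 and 0.80), a miRNA of stratified epithelium and highest in jejunum at 890 RPM. The next places were held by miR-29b (0.74) and miR-182 (0.72) for miR-200a, miR-28-5p (0.79) and miR-29b (0.73) for miR-200b, miR-147 (0.76) and miR-375 (0.74) for miR-200c, miR-375 and miR-20a (both 0.73) for miR-141, and miR-29b and miR-31 (both 0.75) for miR-429.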

How the data were processed

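The authors prepared small RNA libraries, sequenced them, clipped the adaptors and aligned reads to CanFam3.1 with OSA v4, with 0 mismatches and without reads at more than 10 genomic locations. The deposited counts are reads that the authors found, with bedtools, to cover at least 70% of an annotated miRNA locus (dog, rat or human). The deposited RPM values are those counts scaled to 1000000 miRNA reads in each sample, and values recomputed from the counts had relative differences no larger than 2.89e-09. A miRNA without a row in a sample was set to 0. Of 77 labelled samples 76 had values (a colon sample had none), and 1 sample name of the table was not used. Closely related miRNAs could share reads, which counts cannot resolve. Every pair of libraries of a tissue differed beyond sampling noise.

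Counts were fitted in edgeR 4.0.16 (R 4.3.3, limma 3.58.1) with TMM scaling, a filter on low counts by tissue and 1 coefficient for each of 16 tissues, which share the estimate of the spread, and Benjamini-Hochberg adjustment over the 480 miRNAs tested. Tests were two-sided, with an adjusted p under 0.05. The fit was tested on simulated data. DESeq2 1.42.0, other scalings, no filter, fits of the compared tissues alone and leaving out each library were alternatives. TE tests and ratios (0.5 added to counts, 20 reads on each side) used numpy 2.4.6 and scipy 1.17.1 in Python 3.11.15, and figures matplotlib 3.10.9. The SE of a log2 fold change was derived from the test, as its absolute value divided by the square root of the F statistic. The 95% intervals were built from this SE with a normal distribution and are approximate. Limits for a count of 0 cover counting error only. Named miRNAs were the members, the opposite arms, the 3 nearest in pattern to each member over 16 tissue means of log2(RPM + 1), and marker lists. The members and lists were chosen with earlier results of these data known. The raw reads and measurements in treated dogs were not analysed here.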

Additional observations from a re-analysis of the deposited data

Results flagged for a closer look

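In 71 groups of 4 or 5 libraries, each being 1 member in 1 tissue, 11 had a highest library separated from the rest by more than Dixon's 95% critical value. Chance would give about 1 in 20 if the levels were normally distributed and the groups independent. Neither holds here, since levels in RPM have a long upper tail and the same libraries recur for each member. The 11 groups therefore cannot be set against that rate, and no conclusion is drawn from their number. Brain 2 was set apart for miR-200b (901 RPM), miR-200c (54.1 RPM), miR-141 (188 RPM) and miR-429 (1278 RPM), on 174 to 4112 reads. Its miR-182 was 82068 RPM. Duodenum 2 (18021 RPM) and jejunum 2 (21926 RPM) were set apart for miR-141, and for no other member. Plasma 4 was set apart for miR-141 (1143 RPM, 1789 reads) and miR-429 (61.3 RPM, 96 reads). The 3 other cases rest on few reads: miR-200a in heart 3 (0.622 RPM) and skeletal muscle 3 (0.586 RPM), each 1 read, and miR-429 in skeletal muscle 3 (1.76 RPM, 3 reads). The cause was not tested in any of them.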

How the results depend on the processing

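No paired analysis was possible because the labels carry no dog number. The calls of all 5 members in epithelial organs and in liver, and of miR-200c and miR-141 in kidney, held under every alternative tried, each library left out in turn included. Fitting only the compared tissues gave 88 called miRNAs for thymus (133 with all tissues), 124 for plasma (207), 0 for duodenum against jejunum (45), 52 for jejunum against ileum (18) and 4 for ileum against colon (1). Library size alone gave 26 for duodenum against jejunum, and DESeq2 gave 2 for ileum against colon. TE calls of the members were 5 with DESeq2's size factors and 8 with medians (2 otherwise). Differences of medians left 1 ratio called (2 otherwise), with miR-200c to miR-141 in pancreas at -2.0 (adjusted p = 0.0880) and in lung at -0.86. With miR-200a-3p in place of the 5p row 4 ratios were called, and miR-200b to miR-200a was -1.17, -0.51 and -0.18 in pancreas, kidney and lung (0.12, 0.28 and 0.20 otherwise). With at least 100 reads, miR-200c to miR-141 in kidney was 0.13 and the cluster ratio in lung -0.0464. Without duodenum 2 and 4 and jejunum 2, the cluster ratio was -1.78 in pancreas (adjusted p = 0.00103) and -0.42 in lung, and miR-200c to miR-141 in lung -0.30. These alternatives, and those without bone marrow or the libraries that stood apart, were chosen after seeing the data.

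Uncalled log2 fold changes that turned were miR-429 in kidney against intestine (-0.0586, -0.37, -0.22 and -0.0575 with DESeq2's size factors, library size, no filter and DESeq2), miR-200a (0.50 and 0.25) and miR-200b (0.25 and 0.0648) in lung against kidney with library size and no filter, miR-429 in jejunum against ileum with library size (-0.0415), and, without the libraries that stood apart, miR-200a (0.10) and miR-200b (8.7e-04) in duodenum against jejunum.

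Leaving out 1 library at a time moved duodenum against jejunum from 24 to 83 called miRNAs (without duodenum 2 or 3 or jejunum 2 or 4), the TE calls from 1 to 2 and the called ratios from 1 to 3. The miR-200c to miR-141 ratio ranged from -1.65 to -1.40 in pancreas, -0.42 to 0.19 in kidney and -0.0932 to 0.20 in lung, and the cluster ratio from -1.52 to -1.25 in pancreas and -0.17 to 0.12 in lung. Log2 fold changes that turned ranged from -2.74 to 0.45 (miR-141), -0.51 to 0.12 (miR-200a) and -0.73 to 0.0123 (miR-200b) in duodenum against jejunum, -0.55 to 0.25 (miR-200a) and -0.82 to 0.13 (miR-200b) in lung against kidney, -0.66 to 0.0884 (miR-200b) and -0.41 to 0.37 (miR-429) in kidney against intestine, and -0.87 to 0.27 (miR-200c) in plasma against bone marrow. The miR-141 call in plasma was lost in 60 of 76 such fits, and the miR-200a call in thymus without thymus 4. The cause was not tested. Depth limits the members most in bone marrow, where 3 reads are 12.6 to 18.5 RPM.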
